A study of Mus musculus with 6 samples.

Results

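The organic ion transporters are the genes whose symbols start with Slc17a, Slc22a, Slc47a or Slco. The name table held 52 such symbols, of which 37 had values among the 21512 genes of the deposited table, and 25 of these passed the filter on low values. The family group was selected on the measured difference of Slc17a8 between these same libraries, a control mean 3.88-fold that of treated livers, so its difference, and every count below from the same contrast, is a description that supports nothing further. The other members entered by name, whatever their values.

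The livers came from C57BL/6J mice, 3 dosed with anti-PD-1 and 3 with an isotype control antibody every 3 days (PD-1 is an inhibitory receptor of activated T cells). All 6 mice, controls included, ate a high-fat diet and received carbon tetrachloride (CCl4) over 12 weeks, which models fatty liver inflammation and scarring (MASH). Sex and age are not given in the sources used here, and no untreated liver was compared, so each difference is one within diseased livers. RNA was sequenced in bulk after removal of ribosomal RNA. Reads recovered from the deposited gene values numbered 15528364 to 20779319 per library, which is not the depth of sequencing.

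These 4 families move charged small molecules across membranes. SLC17 proteins carry organic anions, among them glutamate, sialic acid, nucleotides and urate. SLC22 proteins carry organic cations, zwitterions such as carnitine, and organic anions. The SLCO genes encode the OATP proteins, which take bile acids, bilirubin, hormones and drugs into hepatocytes from the blood, and SLC47 (MATE) proteins export organic cations into bile.

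Slc17a8 encodes VGLUT3, a vesicular glutamate transporter best known from inner hair cells of the ear and from scattered neurons. Its RefSeq promoter windows, from 250 bases before to 50 bases after each annotated start, are shown because it had by far the largest difference among the members. Both lie on the minus strand of GRCm38.p6, at chr10:89621200-89621499 for the first start and chr10:89599766-89600065 for the second. Capitals mark the only match to 7 motifs searched on both strands. It is the D-box TTATGNAA, bound by clock-linked bZIP factors, here on the opposite strand at position -228 from the first start, and 3.38% of all 32851 promoter windows hold one.
Slc17a8 first start: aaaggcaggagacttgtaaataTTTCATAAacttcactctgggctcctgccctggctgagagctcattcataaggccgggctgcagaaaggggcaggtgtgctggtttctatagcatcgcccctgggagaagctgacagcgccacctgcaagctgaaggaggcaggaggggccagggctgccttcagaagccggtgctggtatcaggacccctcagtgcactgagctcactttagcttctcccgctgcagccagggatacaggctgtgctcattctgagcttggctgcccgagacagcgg
Slc17a8 second start: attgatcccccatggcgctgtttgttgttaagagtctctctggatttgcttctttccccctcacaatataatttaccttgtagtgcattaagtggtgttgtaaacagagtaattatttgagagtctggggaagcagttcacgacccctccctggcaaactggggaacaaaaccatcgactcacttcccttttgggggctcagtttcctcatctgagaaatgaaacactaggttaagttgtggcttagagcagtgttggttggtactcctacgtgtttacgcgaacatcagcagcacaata

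The second set shown is a pair of Slc22a genes from 1 gene cluster with near-identical promoters and very different levels. The windows of Slc22a30 (chr19:8405056-8405355) and Slc22a28 (chr19:8131933-8132232), both on the minus strand of GRCm38.p6, aligned over 294 bases with 288 identical (98.0%) and no internal gap. Capitals mark the 6 bases that differ.
Slc22a30: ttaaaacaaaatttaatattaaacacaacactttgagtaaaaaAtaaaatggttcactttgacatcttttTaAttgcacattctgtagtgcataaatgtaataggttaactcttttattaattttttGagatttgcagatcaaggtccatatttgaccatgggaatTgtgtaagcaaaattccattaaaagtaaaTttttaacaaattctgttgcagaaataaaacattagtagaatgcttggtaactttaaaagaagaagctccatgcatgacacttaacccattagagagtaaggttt
Slc22a28: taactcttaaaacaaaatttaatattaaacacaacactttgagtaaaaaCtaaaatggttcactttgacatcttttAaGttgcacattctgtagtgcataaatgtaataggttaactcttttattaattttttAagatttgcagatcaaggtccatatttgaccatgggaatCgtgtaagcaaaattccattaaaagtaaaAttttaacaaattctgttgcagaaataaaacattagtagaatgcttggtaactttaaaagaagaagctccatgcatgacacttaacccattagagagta

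Levels below are normalized counts, the authors' values, which are reads relative to a scaled library size, in which 3 reads correspond to 0.14 to 0.20. Fold changes are log2 differences of (value + 0.5), anti-PD-1 minus isotype control, each with its standard error (SE) from limma, which was fitted across all 13990 tested genes.

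Slc17a8 stood at 52.4, 30.4 and 40.3 in isotype control replicates 1 to 3, from 971, 561 and 802 reads. In anti-PD-1 replicates 1 to 3 it stood at 11, 8.26 and 12.5, from 229, 124 and 241 reads. The groups did not overlap: the lowest control liver was 2.43-fold above the highest treated one, while livers within a group differed by 1.73-fold (control) and 1.51-fold (anti-PD-1). Its fitted difference, -1.89 ± 0.22 (SE) on the log2 scale, was the 9th most negative of 13990 tested genes and the 5th most negative of the 8119 with a mean of at least 10. In bulk liver RNA, fewer cells that express a gene and less RNA per cell cannot be told apart.

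**Figure D1:**
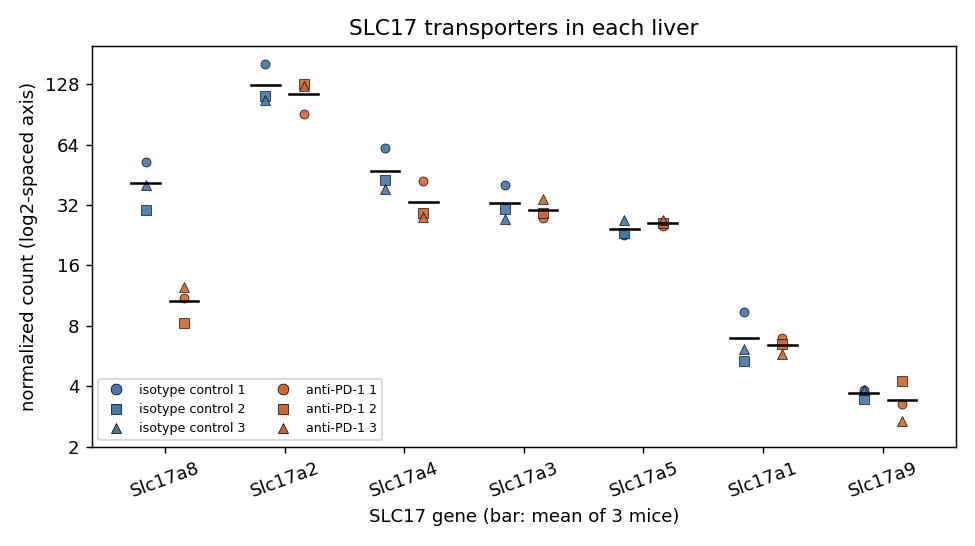
Normalized counts of the 7 SLC17 genes tested, on a log2-spaced axis, 1 symbol per liver and a bar at the mean of 3 mice. The 3 anti-PD-1 livers lie below the 3 isotype control livers for Slc17a8, and the groups overlap for the other 6 genes.

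Markers of other cell types were set beside Slc17a8. The summed T cell markers did not overlap between the groups. The summed monocyte, Kupffer cell, cholangiocyte, stellate cell and endothelial cell markers did overlap. The 5 T cell markers (Cd3e, Cd3d, Cd8a, Cd4 and Trac) summed to 1.76 to 2.43 in control livers and 5.13 to 27.4 in treated livers. None of the 5 was at 0 in any library. Of the 2 that passed the filter, 0 were called by limma or edgeR. Both were higher at an unadjusted limma p under 0.05, where 5.04% of all tested genes were higher. DESeq2 called both higher, where it called 1.05% of all tested genes higher. Anti-PD-1 replicate 1 stood apart in the T cell sum, with 27.4 against 5.13 and 5.69. Its 5 monocyte markers summed to 77.3, against 10.7 to 22.8 in the other 5 livers. In Slc17a8 that liver lay between the other 2 treated livers, and without it the fitted difference was -1.93. Of the 6 neuron markers, Snap25, Th and Chat were not analysed here, Rbfox3 reached at most 0.65 and Tubb3 at most 0.31 (0 in 2 libraries), and Syt1 was at 6.04 to 10.01 in control livers and 9.13 to 12.4 in treated livers.

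Of the 6 Kupffer cell markers (resident liver macrophages), 5 had negative fold changes, as Slc17a8 did, with a median of -1.10. By limma and edgeR 0 passed. At an unadjusted limma p under 0.05, 4 were lower (Clec4f, Vsig4, Timd4 and Marco), where 6.24% of all tested genes were lower. DESeq2 called 2 lower, Timd4 and Marco, where it called 0.779% of all tested genes lower. Timd4 was at 3.88, 1.73 and 3.57 in control livers and 0.86, 0.40 and 0.26 in treated livers, and Marco at 3.03 to 13.0 and 0.60 to 2.74. The summed level of the 6 overlapped between groups, at 171 to 392 and 184 to 286, with Adgre1 at 25.2 to 50.4 and 29.3 to 90.1. Of the 6 cholangiocyte markers (bile duct cells) 4 were negative, with a median of -0.51, and the sums were 94.9 to 238 and 78.8 to 137. At an unadjusted limma p under 0.05, 1 of them was lower, and 0 passed by limma, edgeR or DESeq2. Of the 10 pericentral hepatocyte markers 6 were positive and 4 negative, and 0 passed by limma or edgeR. At an unadjusted limma p under 0.05, 2 of these 10 were lower and 0 higher. DESeq2 called 2 lower, and the fit with the replicate block called 1, where it called 0.286% of all tested genes. No Kupffer cell or cholangiocyte marker was at 0 in any library. The part of any of these cells in the Slc17a8 result was not tested.

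The vesicular relatives of Slc17a8 gave little to compare: Slc17a6 and Slc17a7, which encode the other VGLUT proteins, were not analysed here. Slc17a9, the vesicular nucleotide transporter, was at 3.83, 3.46 and 3.82 in control livers and 3.27, 4.26 and 2.69 in treated livers. Slc17a5, which encodes the lysosomal sialic acid exporter sialin, varied least of all 25 tested members, from 22.6 to 27.1 over the 6 livers. Neither gene separated the groups.

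Slc17a1 to Slc17a4 lie side by side in the annotation and encode phosphate, urate and organic anion carriers. Slc17a4 was at 61.7, 42.5 and 38.2 in control livers and 41.9, 29.2 and 27.7 in treated livers. Anti-PD-1 replicate 1 lay inside the control range, and the difference was -0.51 ± 0.22 (SE). It shrank to -0.31 without isotype control replicate 1, the highest liver. Slc17a2 (90.6 to 162), Slc17a3 (27.1 to 40.1) and Slc17a1 (5.36 to 9.39) overlapped between groups, with differences of -0.14 to -0.08. Isotype control replicate 1 was the highest of the 6 livers for all 4 genes, and without it the differences of Slc17a1, Slc17a2 and Slc17a3 turned positive.

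Among the organic cation carriers, Slc47a1 (MATE1), on the canalicular side of hepatocytes, was at 89.9, 116 and 104 in control livers and 88.1, 86.8 and 90.0 in treated livers. The treated livers sat close together, at or just beside the lowest control (-0.22 ± 0.11, SE). Slc22a3 (OCT3) was at 1.56, 4.06 and 3.32 in control livers and 2.40, 1.33 and 1.09 in treated livers, a difference of -0.70 ± 0.36 (SE). It overlaps Plg, a plasminogen gene with a mean of 1960, on the opposite strand, and since strand use in counting is not given in the sources used here, its low values are uncertain.

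Slc22a5 (OCTN2), the carnitine importer, was at 16.8, 21.9 and 20.7 in control livers and 18.01, 27.0 and 21.1 in treated livers. Slc22a4 (OCTN1), an ergothioneine carrier, stayed between 0.97 and 1.73, and Slc22a21 (OCTN3) between 0.22 and 0.54, below the filter. These 3 genes overlapped between groups, and 27.1% of the 50-base stretches of Slc22a5 also occur in other genes, chiefly Slc22a21. Slc22a15, a carrier of zwitterions, was at 15.0, 14.4 and 15.4 in control livers and 13.6, 11.9 and 11.9 in treated livers. It was the only tested member besides Slc17a8 whose groups did not overlap, with a small difference of -0.26 ± 0.12 (SE).

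Slc22a18, an imprinted relative of the cation carriers, was at 62.3, 58.2 and 49.8 in control livers and 52.9, 52.1 and 57.3 in treated livers. Slc22a23, an orphan carrier, was at 105, 121 and 110 in the former and 106, 141 and 125 in the latter. Both overlapped between groups.

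Of the organic anion carriers, Slc22a7 (OAT2) was at 18.6, 13.1 and 8.50 in control livers and 16.1, 21.4 and 17.02 in treated livers. Isotype control replicate 1 lay inside the treated range (0.48 ± 0.26, SE). The kidney carriers Slc22a8 (OAT3) and Slc22a12 (URAT1) had at most 2 reads in any library, under the limit of 3. Of the 7 kidney tubule markers, Aqp2 and Slc5a2 were not analysed here, and the other 5 summed to 0.16 to 2.82 in control livers and 1.78 to 4.39 in treated livers.

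Slc22a26 to Slc22a30 form a run of adjacent genes. Slc22a30, a little-studied relative of the anion carriers, was at 159, 142 and 114 in control livers and 106, 150 and 156 in treated livers, with a difference of -0.02 ± 0.18 (SE). Slc22a28, whose promoter window is printed above beside that of Slc22a30, was at 0.97, 1.03 and 0.20 in control livers and 0.58, 0.53 and 2.38 in treated livers. Per kilobase of transcript the control level of Slc22a30 was 145-fold that of Slc22a28 (53.2 against 0.37). Of the 50-base stretches of the Slc22a28 transcript, 53.9% also occur in other genes, foremost Slc22a30. For Slc22a30 the share was 35.9%, foremost with Slc22a28. For Slc22a27 and for Slc22a29 it was 30.5% each, foremost with other genes of the run. The split of reads within this run is therefore uncertain.

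Slc22a27 was at 1.19, 2.43 and 3.77 in control livers and 3.22, 0.53 and 0.93 in treated livers, and Slc22a29 at 0.38, 1.19 and 2.21 and at 2.79, 0.47 and 0.16. For both, isotype control replicate 3 and anti-PD-1 replicate 1 were the 2 highest livers, so the spread ran across the groups. For Slco1a1, an OATP of the hepatocyte surface that is more abundant in male than in female mouse liver, the same 2 livers were the lowest. Slco1a1 was at 114, 98.1 and 37.3 in control livers and 21.3, 132 and 199 in treated livers, a 9.34-fold range over the 6 livers. This order of livers was picked out after the values were seen.

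**Figure D2:**
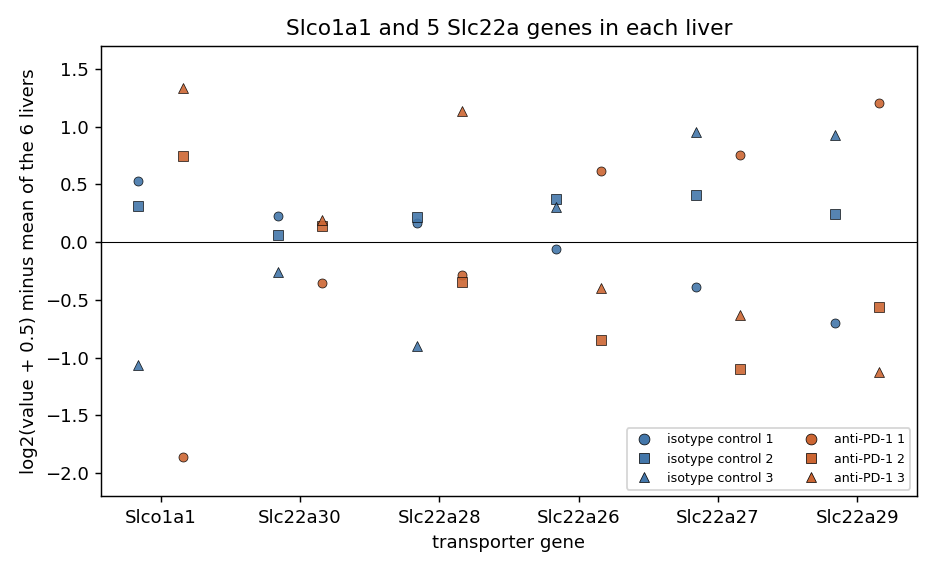
Log2(value + 0.5) of Slco1a1 and 5 adjacent Slc22a genes in each liver, minus that gene's mean over the 6 livers, 1 symbol per liver. Isotype control replicate 3 and anti-PD-1 replicate 1 are lowest for Slco1a1 and Slc22a30 and highest for Slc22a27 and Slc22a29.

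The fitted difference of Slco1a1 was 0.15 ± 0.79 (SE), smaller than its error and unsteady in sign: it was 1.11 with anti-PD-1 replicate 1 left out and -0.48 with replicate 3 of that group left out. Only 5 of the 25 tested members ranged 3-fold or more over the livers (Slc17a8, Slc22a3, Slc22a27, Slc22a29 and Slco1a1), and in Slc17a8 alone of these did the groups not overlap. The highest library exceeded the lowest by under 2-fold in 17 of the 25, with a median ratio of 1.58 against 1.54 over all tested genes.

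The more abundant SLCO genes overlapped between groups. Slco1b2, the main OATP of mouse hepatocytes, was at 1122, 1233 and 1100 in control livers and 1035, 1179 and 1290 in treated livers. Its difference was 0.02 ± 0.14 (SE), and the sign turned under scaling by library totals and under quantile normalization. Slco1a4, a digoxin carrier (48.4 to 60.1 in controls, 49.5 to 65.8 in treated livers), and Slco2b1 (172 to 188 and 159 to 207) overlapped between groups. Slco2a1, the prostaglandin transporter, was at 47.8 to 58.8 and 52.4 to 66.5.

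Slco3a1 was at 6.26, 7.2 and 8.40 in control livers and 15.1, 8.92 and 6.73 in treated livers, a difference of 0.40 ± 0.28 (SE). It rested on anti-PD-1 replicate 1, the liver with the most T cell and monocyte marker RNA, and was 0.09 without it. The part of those cells was not tested.

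**Figure D3:**
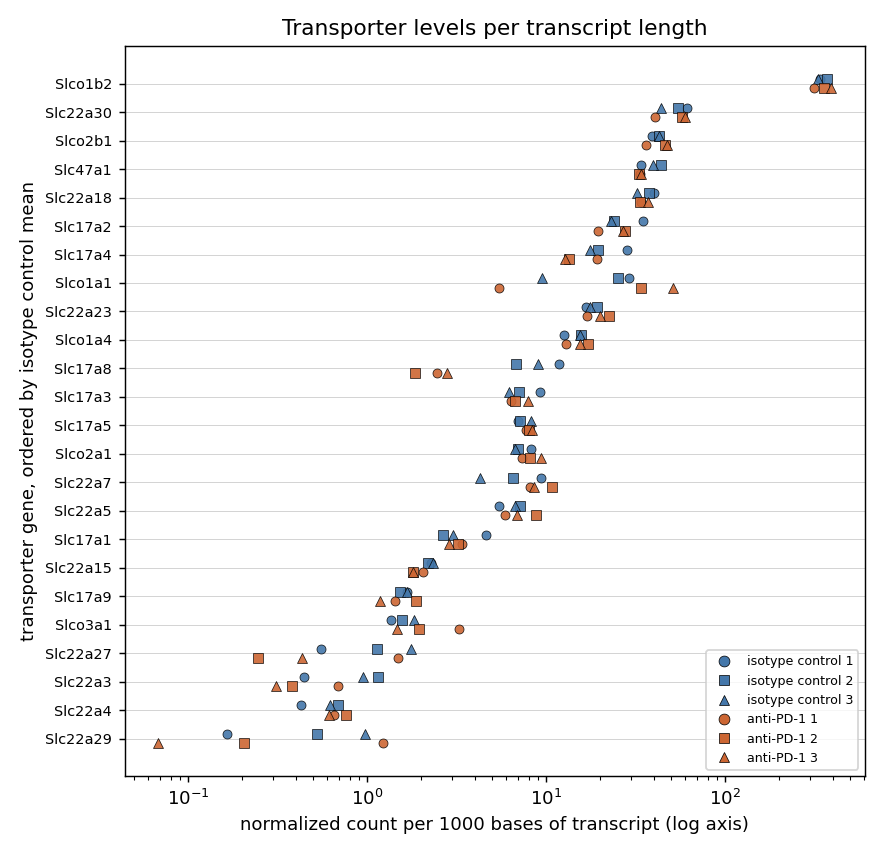
Normalized count per kilobase of transcript (log axis) for 24 of the 25 tested members, ordered by the isotype control mean, 1 symbol per liver. Slco1b2 leads, and Slc17a8 lies mid-order in control livers with its 3 anti-PD-1 livers set apart to the left.

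Per kilobase of the longest coding transcript, control levels ran from 348 for Slco1b2 through 53.2 for Slc22a30, 41.7 for Slco2b1 and 39.2 for Slc47a1 down to 0.55 for Slc22a29. Slc17a8 was 12th of 25 at 9.21, 37.8-fold under Slco1b2. Hepatocyte markers, by which the labelled tissue was checked, were abundant in every library: the 8 summed to 82178 to 105413 in control and 79379 to 98588 in treated livers, with Alb at 46646 to 69086.

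Of the other 12 members with values, all below the filter, Slc22a28, Slc22a17 (a lipocalin-2 receptor) and Slc22a21 had 3 or more reads in every library. Slc22a26 and Slco1c1, a thyroid hormone carrier, had 3 or more reads in every control library but not in every treated one. Slco1c1, at 5, 3 and 3 reads in control livers and 2, 1 and 0 in treated livers, is too close to the limit of 3 reads for a comparison. The remaining 7 (Slco5a1, Slco4a1, Slco1a6, Slco4c1, Slc22a13b-ps, Slc22a12 and Slc22a8) did not reach 3 reads in every library of either group. The 15 symbols without values, among them Slc22a2 and Slc22a6, were not analysed here.

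**Figure D4:**
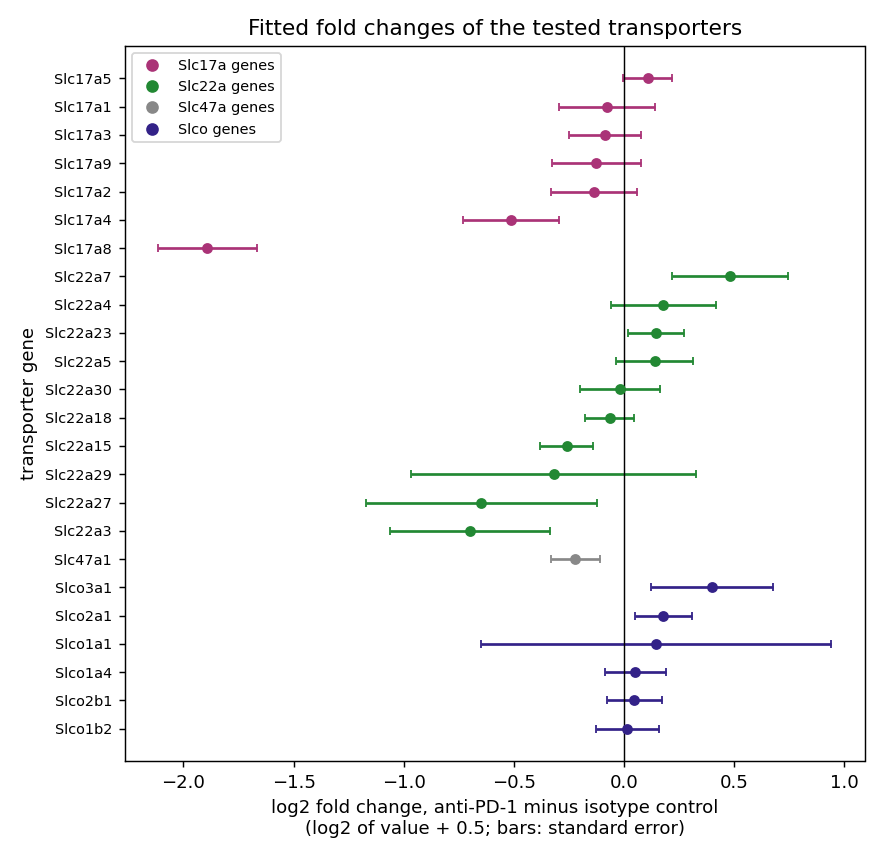
Fitted log2 fold changes (anti-PD-1 minus isotype control, on log2 of value + 0.5) of 24 of the 25 tested members, by family, with bars for 1 SE. Slc17a8 is set apart at -1.89, and the others lie between -0.70 and 0.48.

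Across the members as a whole, 11 of 25 had positive and 14 negative fold changes, with a median of -0.06 against 0.003 over all tested genes. The median turned to 0.03 without anti-PD-1 replicate 1. All 6 SLCO genes were positive (median 0.10), though 4 of these signs were unsteady. Slco1b2 and Slco2b1 turned negative with quantile normalization, Slco1b2 also with scaling by library totals, and Slco1a1, Slco1a4, Slco1b2 and Slco2b1 each turned with some single library left out (Slco1a4 to -0.04 when anti-PD-1 replicate 2 was left out, or to -0.05 when isotype control replicate 1 was). Of the SLC17 genes, 6 of 7 were negative (median -0.12), and Slc17a1, Slc17a2, Slc17a3 and Slc17a9 each turned positive with some single library left out.

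By limma 0 of 25 members passed an adjusted p of 0.05, against 0.00715% of all tested genes, and edgeR on recovered reads called 0 against 0.00715%. DESeq2 called 1 member, Slc17a8, which was lower, where 0.779% of all genes were called lower, 1.05% higher and 1.83% either way. With the replicate number as a block limma called the same 1 member, where 0.0929% of all genes were lower, 0.193% higher and 0.286% either way. At an unadjusted p under 0.05, limma, edgeR and DESeq2 each held the same 2 members, Slc17a8 and Slc17a4, both lower, and 0 higher, as did limma with the block. For limma 6.24% of all genes were lower and 5.04% higher (11.3% either way), for edgeR 6.15% and 5.45% (11.6%), for DESeq2 5.18% and 6.25% (11.4%), and for the blocked fit 7.4% and 7.75% (15.1%). The groups did not overlap in 2 of 25 members, both lower, against 17.1% of all tested genes (9.98% lower, 7.13% higher). A log2 fold change of 1 or more in size was seen in 1 member, lower, where 0.608% of all genes were lower and 1.52% higher to that extent. Apart from Slc17a8, limma adjusted p-values ran from 0.433 (Slc17a4) to 0.982 (Slc22a30).

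Among the transport partners in bile formation, 0 of 12 tested genes passed by limma, edgeR or DESeq2. At an unadjusted limma p under 0.05, 1 gene, Abcb11, was lower, where 6.24% of all tested genes were lower. Abcb11, the bile salt export pump, was at 1019, 701 and 753 in control livers and 661, 559 and 647 in treated livers (-0.39 ± 0.17, SE), and Abcb4, which exports phospholipid into bile, was at 414 to 443 and 326 to 414. Abcb1b, a drug efflux pump, was at 2.06 to 3.14 and 1.86 to 5.91.

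Of 14 transcription factors tied to these transporters, 0 passed by limma or edgeR, 6 had an unadjusted limma p under 0.05, all 6 lower, where 6.24% of all tested genes did so. DESeq2 called 3 of them lower, where it called 0.779% of all tested genes lower. The block fit called 1 lower, Nfe2l2, where it called 0.0929% of all tested genes lower. Nr1i3 (CAR), a xenobiotic sensor, was at 50.4, 64.2 and 47.2 in control livers and 35.5, 31.3 and 26.1 in treated livers (-0.79 ± 0.16, SE). Nfe2l2 (NRF2), of the antioxidant response, was at 123, 84.5 and 72.5 and at 58.7, 47.3 and 34.7, and its limma adjusted p was 0.255, or 0.0385 with the replicate block. Foxa2, a hepatocyte factor, was at 6.69 to 12.3 and 3.36 to 4.53. In each of these 3 genes the treated livers lay below all controls. Nr1h4 (FXR), the bile acid receptor and the coding neighbour of Slc17a8 in the annotation, was at 121, 125 and 118 in control livers and 93.1, 103 and 100.4 in treated livers (-0.30 ± 0.09, SE). Scyl2, its other coding neighbour, overlapped between groups at 58.9 to 64.6 and 49.2 to 60.0. Both neighbours were named after their values were seen.

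Around glutamate itself, 0 of 20 tested genes passed by limma, edgeR or DESeq2, and 3 had an unadjusted limma p under 0.05, all 3 higher, where 5.04% of all tested genes did so. Slc38a2, an amino acid importer, was at 231, 522 and 610 in control livers and 692, 929 and 1149 in treated livers. Got1, the cytosolic aspartate aminotransferase, was at 252, 465 and 598 and at 608, 832 and 1203, and Slc25a12, a mitochondrial aspartate-glutamate carrier, at 14.4 to 17.2 and 17.4 to 23.5. Isotype control replicate 1 was the lowest liver for Slc38a2 and Got1, and also for the pericentral genes Glul (167 against 287 to 669 in the others) and Slc1a2 (9.50 against 85.9 to 211).

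In the carnitine list 0 of 6 tested genes passed by limma or edgeR. At an unadjusted limma p under 0.05, 1 gene, Crat, was lower, where 6.24% of all tested genes were lower. DESeq2 called the same gene, where it called 0.779% of all tested genes lower. Crat, carnitine acetyltransferase, was at 75.3, 64.7 and 68.5 in control livers and 54.1, 46.2 and 41.7 in treated livers. The mitochondrial carnitine acyltransferases Cpt2 (129 to 138 in control and 134 to 162 in treated livers) and Cpt1a (625 to 877 and 773 to 1117) overlapped between groups. In the urate list 0 of 5 passed by limma, edgeR or DESeq2. At an unadjusted limma p under 0.05, 1 gene, Xdh, was higher, where 5.04% of all tested genes were higher. Xdh, the enzyme that forms urate, was at 213 to 246 in control livers and 257 to 285 in treated livers. Slc2a9, a urate carrier, overlapped between groups at 47.0 to 55.4 and 47.2 to 62.3.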

How the data were processed

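The authors deposited a signal value, a normalized read count, for each gene in each liver. Trimmomatic 0.38, RSEM 1.3.0, Bowtie2, edgeR and the build GRCm39 are named, without roles, per the submitters' processing notes. Every deposited value was a whole multiple of 1 read's value within 0.001 read (100% of values), so whole reads could be recovered for count tests. Groups come from the sample titles, since the treatment field counts up after "PD" in anti-PD-1 replicates 2 and 3. Symbols came from a name table keyed by gene identifier (21407 of 21512 matched).

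A gene entered when 3 or more libraries held 1 unit or more, and was tested with limma 3.58.1 (intensity trend, two-sided, Benjamini-Hochberg over all tested genes, threshold 0.05) on log2(value + 0.5), in R 4.3.3. Exact permutation of 3 against 3 cannot go below 0.1. The recovered reads were also given to edgeR 4.0.16 (quasi-likelihood) and DESeq2 1.42.0. The scripts were tested on simulated data. Labels do not say whether mice shared a cage or day. Replicate numbers are shared by the groups in the labels. For equal numbers, the libraries' deviations from their group's mean had correlations of 0.15, 0.13 and 0.25, each over 0.1. For unequal numbers they ran from -0.22 to 0.06. Deviations from a mean of 3 libraries constrain one another, so these correlations cannot establish a pairing. The labels do not state that equal numbers pair mice. A blocked limma fit was added on that assumption, which was taken from these same data and was not tested.

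Transcript lengths, overlaps and 50-base stretches come from GENCODE M21 (GRCm38), and promoter windows from RefSeq (GRCm38.p6), which held 19 of the 25 tested members and was aligned with Biopython 1.88. Both are an older build than the submitters' GRCm39. The 7 motifs were the TATA box, the CCAAT box, the E-box CACGTG, the D-box TTATGNAA, and the HNF1, HNF4 and STAT sites.

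Members and lists were chosen with earlier results of these data known. Named were Slc17a8, every member with a mean of at least 1 unit except 1 that is not reported here but stays in the counts, low members as counts with examples, and up to 3 genes of smallest unadjusted p per list. A protein of Slc17a8 had been planned as the printed sequence; promoter windows are printed instead, chosen after values were seen.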

Additional observations from a re-analysis of the deposited data

How the results depend on the processing

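The 3 mice per group limit every comparison, and depth limits members near 3 reads. No member was called higher under any alternative. The count called lower was 1 (Slc17a8) with DESeq2 on recovered reads and 1 with the replicate block, and 0 under every other alternative. At an unadjusted p under 0.05, 1 member was lower without the intensity trend and 1 under scaling by library totals. Leaving out 1 library at a time gave 1 to 5 members lower (5 with anti-PD-1 replicate 1 removed, 4 with isotype control replicate 1 removed) and 0 to 1 higher, and a median of -0.13 to 0.025 over the tested members. Genes of the pathway lists called in either direction numbered 0, against 4 with DESeq2 and 1 with the replicate block. Of all tested genes, DESeq2 called 1.83% and the replicate block 0.286% in either direction. The block changed no other call among the members and these lists; over all tested genes it raised the calls from 1 to 40. The causes were not tested. The sign of 12 of the 25 members turned under at least 1 alternative, mostly with 1 library left out. Slc17a8 ran from -2.09 (without isotype control replicate 2) to -1.70 (without isotype control replicate 1).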

Other observations

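The liver-to-liver order of Slco1a1 recurred, except that its 2 lowest livers changed places, in Mup7 and Hsd3b5. Neither is a transporter, and both were picked after their values were seen. Mup7 is a major urinary protein gene and Hsd3b5 a steroid reductase gene, both known as male-biased in mouse liver. Mup7 was at 1727, 694 and 130 in control livers and 172, 1959 and 2446 in treated livers, in replicate order. Hsd3b5 was at 5.99, 1.89 and 0.35 in control livers and 0.38, 6.86 and 6.88 in treated livers. As for Slco1a1, isotype control replicate 3 and anti-PD-1 replicate 1 were the 2 lowest livers. Cyp2b9 and Cyp7b1 were also picked after their values were seen, so they add no independent support. Cyp2b9, a female-biased cytochrome P450, was at 35.1, 36.0 and 44.6 in control livers and 66.7, 4.26 and 2.17 in treated livers, with the same 2 livers highest. Cyp7b1, an oxysterol hydroxylase with male-biased expression, was at 34.8, 26.2 and 16.1 in control livers and 23.7, 79.0 and 83.7 in treated livers. Isotype control replicate 3 and anti-PD-1 replicate 1 were again lowest, but the latter lay inside the control range. Only anti-PD-1 replicates 2 and 3 stood apart, as the highest.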
